A study of Drosophila melanogaster with 13 samples.

Results

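The 9 genes described here encode motors, cargo adaptors and microtubule proteins of the axon, measured in pools of identified Drosophila melanogaster motoneurons. They are the kinesin genes Khc, Klc and unc-104, the dynein gene Dhc64C, the mitochondrial adaptor genes milt and Miro, and the microtubule genes futsch, tau and stai. They were chosen by function and matched to the count table by gene symbol, and all 9 were found among its 17753 genes. Motor proteins carry vesicles, mitochondria and other cargo along axonal microtubules, kinesins of these families mostly towards the synapse and cytoplasmic dynein mostly back to the cell body. Adaptor proteins join a motor to its cargo, and microtubule-associated proteins bind, bundle or regulate the tracks. In larval motoneurons the cell body lies in the ventral nerve cord and the synapse on a distant body wall muscle, and fly mutants of several of these genes have defects in axonal transport or in the neuromuscular synapse.

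MN1-Ib is an identified glutamatergic motoneuron of the larva, taken here by patch pipette from larvae of instar 3. All 4 groups carried the driver MN1-Ib-GAL4 and the membrane reporter UASmCD8:GFP. Control cells carried no interference construct (n = 3 libraries), and the other groups expressed in the same neuron an RNA interference construct against Shal (Shal RNAi, n = 3), against Notch (Notch RNAi, n = 4) or both constructs (Notch+Shal RNAi, n = 3). Shal is a voltage-gated potassium channel of the Kv4 family, and Notch is a cell surface receptor. A library was made from 4 to 8 pooled neurons, taken from 1 larva or 2, and p-values measure the spread between such pools. Whether pools of a group shared larvae was not stated. Cytoplasm was drawn into the patch pipette and the cell then pulled from the tissue.

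Total counts ran from 3783100 to 9319116 per library. Levels are given as CPM, a gene's counts scaled to the same total in each library; 3 counts, used as a floor, equalled 0.322 to 0.793 CPM and cover counting error only. Shal RNAi 1 and 3 stood apart from the other libraries. Mitochondrially encoded RNA took 13.5% and 11.5% of their counts, against 0.893 to 5.83% elsewhere, and their TMM scaling factors, which correct for differences in RNA composition, were at most 0.620 against 0.935 to 1.41. No fall of an RNA interference target was called: Shal had a median of 45.4 CPM in control and 111.9 in Shal RNAi, with 53.3, 111.9 and 135.0 CPM in its libraries (log2 fold change 1.72, SE 0.83, edgeR adjusted p = 0.424). N, the Notch gene, ran from 28.8 to 229 CPM in control and from 19.4 to 294 in Notch RNAi (log2 fold change -0.16, SE 1.03, adjusted p = 0.999). Groups are therefore named by their labels. Each library held VGlut, which loads glutamate into synaptic vesicles, at 401 to 2841 CPM, whereas ChAT, the acetylcholine synthase of cholinergic neurons, reached 0.244 CPM. Markers of GABAergic neurons were not absent. VGAT was detected in 12 libraries, with a median of 8.51 and a highest value of 62.7 CPM, and Gad1 in 2, at up to 14.5 CPM. Of 6 glial markers, the determinant repo reached 2.44 CPM and the astrocyte gene alrm had no count, but Gs2 and nrv2 were detected in all 13 libraries, and the summed level of the 6 was 161 to 1036 CPM. The summed level of 6 fat body markers ran from 1421 to 18399 CPM, and that of 5 muscle markers from 88.2 to 1772 CPM. In pooled material of this kind, fewer cells of a type and less RNA per cell cannot be told apart.

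The 9 genes together took 0.341 to 1.16% of all counts, lowest in Notch RNAi 4 and highest in Shal RNAi 1. By this measure futsch and stai dominated, with 55.1 to 95.9% of the counts of the 9 genes. Long genes collect more reads per transcript, so levels are compared between genes only as CPM per kb of exon. How evenly reads covered long and short transcripts was not tested. On that scale stai led in control at 779.6 ± 229 CPM per kb (SD, n = 3). Klc at 144 ± 10.7 and futsch at 139 ± 31.0 came next, and these did not differ beyond their spread. They were followed by unc-104 at 83.4 ± 4.72, Khc at 39.4 ± 12.8, Miro at 9.43 ± 2.65, tau at 7.10 ± 2.18, milt at 4.76 ± 0.770 and Dhc64C at 2.72 ± 0.430 CPM per kb. Miro and tau overlapped in control, as did tau and milt.

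In all 13 libraries stai ranked first per kb, and Khc stood above Miro. Other neighbours in the control order changed places. Klc was above futsch in 6 of 13 libraries, Miro above tau in 6, tau above milt in 7, and milt above Dhc64C in 10. The upper and lower parts of the order were not fully separate, since the best rank of tau in a library was 5 and the worst rank of Khc was 6. Dhc64C, the longest of the motor genes with 14597 bases of exon, was last in each group except Shal RNAi, where its rank was 7. Using the longest transcript in place of all exons exchanged Miro and tau in control, at ranks 6 and 7.

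**Figure D1:**
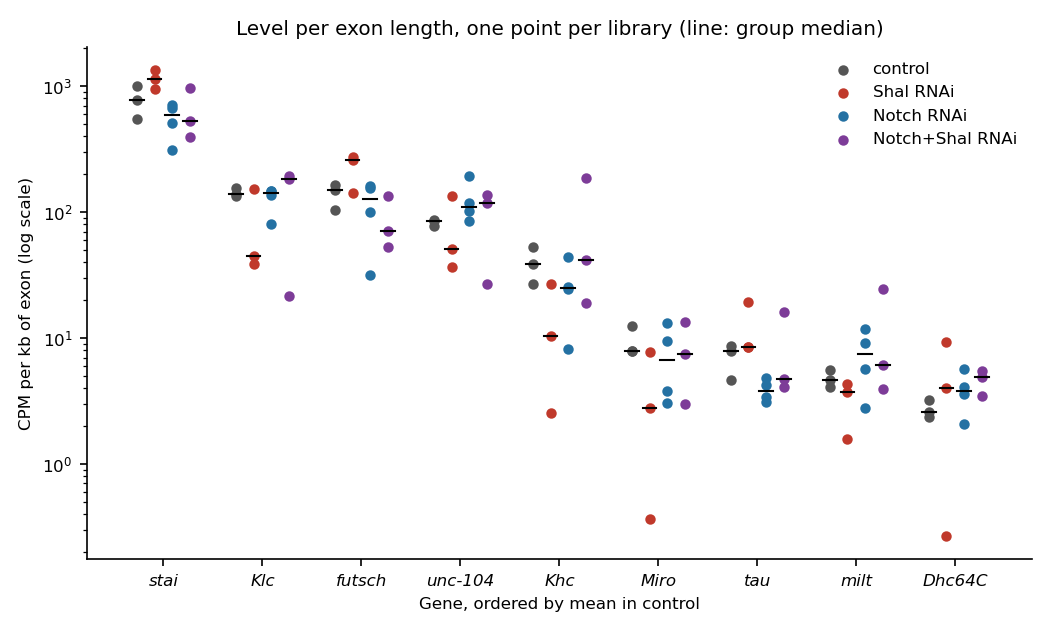
Level of each of the 9 genes in CPM per kb of exon on a log scale, 1 point per library, coloured by group, with a line at each group's median and genes ordered by their mean in control. stai lies above the other genes in all 13 libraries, and Miro, tau, milt and Dhc64C lie lowest, with single Shal RNAi points of Miro at 0.365 and Dhc64C at 0.269 CPM per kb.

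The 3 kinesin genes did not pass the test in any comparison, and they differed from each other in how their libraries scattered. Khc encodes the heavy chain of kinesin-1, the motor subunit (FBgn0001308, BDGP6.54 chromosome 2R, 16266960 to 16271971, minus strand, with a single annotated transcript). It stood at 101, 143 and 196 CPM in the control libraries 1 to 3 and at 9.47, 101 and 38.8 CPM in Shal RNAi. Notch RNAi libraries held 90.4, 30.4, 93.8 and 163 CPM of Khc, and those with both constructs 156, 697 and 71.1 CPM. Shal RNAi lay below control in every library on this scale, but only just in Shal RNAi 2, and the Notch+Shal RNAi mean of 308 ± 339 CPM (SD, n = 3) rested on library 2. After TMM scaling the Shal RNAi and control libraries overlapped. Against control the fitted log2 fold change was -1.03 (SE 0.78) for Shal RNAi and 1.04 (SE 0.74) for Notch+Shal RNAi, and neither passed (edgeR adjusted p = 0.592 and 1.00). Its interaction, the departure of the double group from the sum of the single changes, was 2.66 (SE 1.05, adjusted p = 0.474); without Notch+Shal RNAi replicate 2 the Khc value was 1.40.

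**Figure D2:**
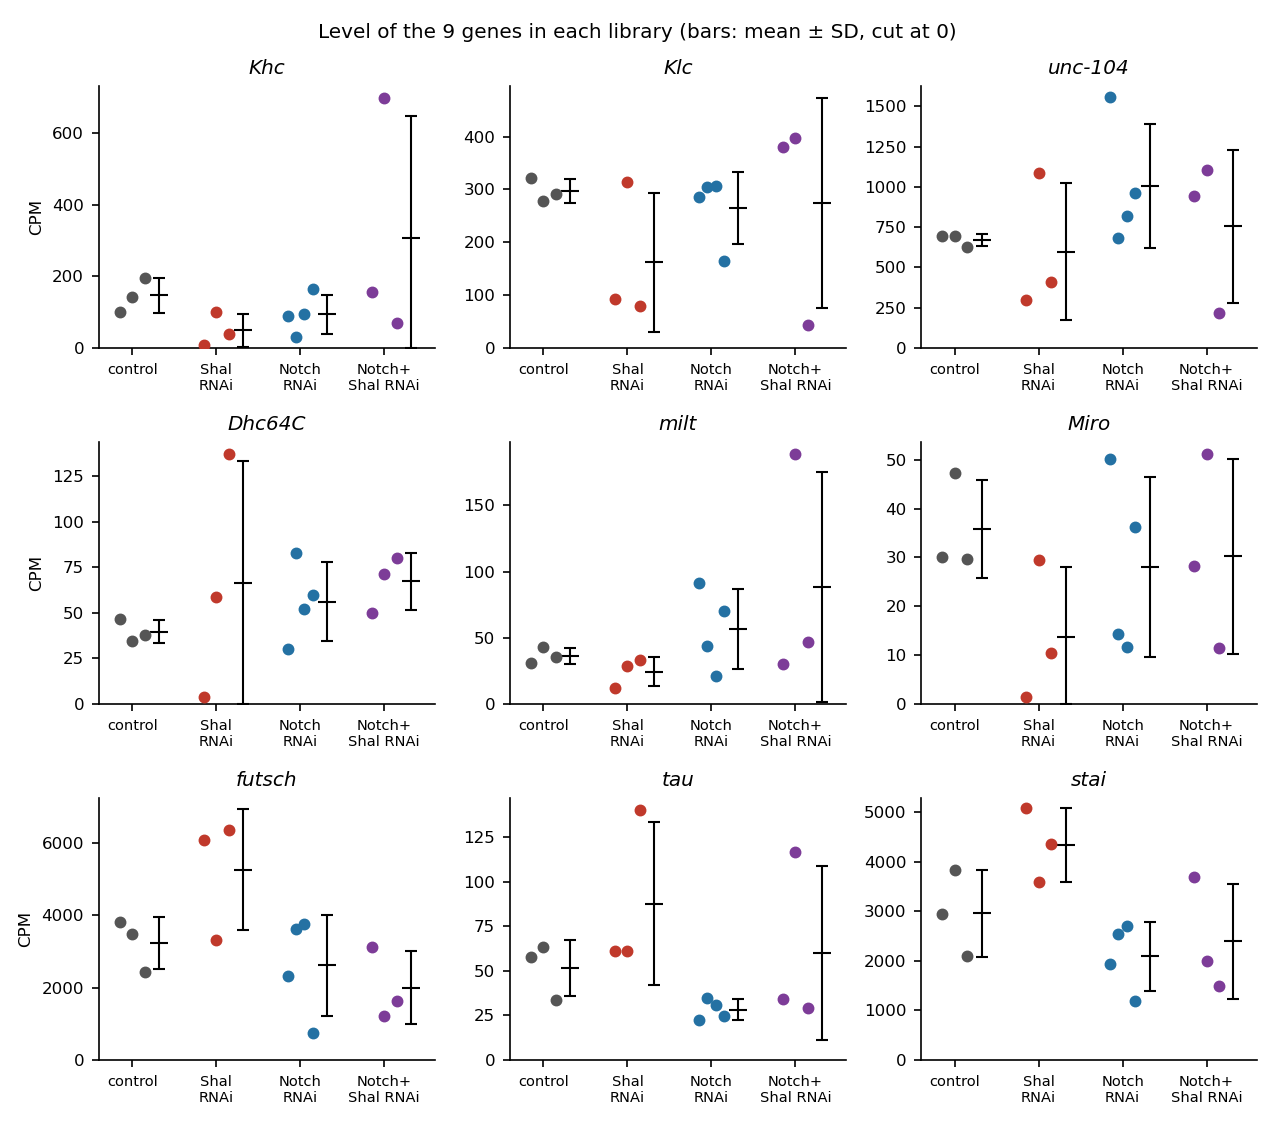
CPM of each of the 9 genes in the 13 libraries, 1 point per library in replicate order, with the group mean and SD beside the points; lower bars stop at 0. Among the wide groups, Khc runs from 71.1 to 697 CPM in Notch+Shal RNAi, and Dhc64C from 3.92 to 136.8 CPM in Shal RNAi.

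Klc encodes the kinesin light chain, which links kinesin-1 to cargo (FBgn0010235, chromosome 3L, 12746616 to 12750056, minus strand). Control libraries held it at 322, 279 and 290.4 CPM, a coefficient of variation of 7.47%. Shal RNAi libraries were at 91.9, 314 and 79.8 CPM, Notch RNAi at 285, 305, 306 and 165 CPM and Notch+Shal RNAi at 381, 397 and 44.3 CPM. Most libraries thus lay between 279 and 397 CPM, and 4 fell to 165 CPM or less: Shal RNAi 1 and 3, Notch RNAi 4 and Notch+Shal RNAi 3. On CPM, Shal RNAi 2 and Notch RNAi 1 to 3 lay within the control range, and Notch+Shal RNAi 1 and 2 above it. The log2 fold changes against control were -0.38 (SE 0.68), -0.02 (SE 0.63) and -0.12 (SE 0.67) for Shal RNAi, for Notch RNAi and for both constructs. An overlapping gene on the other strand, CG32109, shares 155 bases with Klc, 7.51% of the Klc exons, and had 598 to 2600 counts. Whether reads were assigned by strand is not given in the sources used here, so reads of the shared stretch may belong to either gene.

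RNA levels of the light and heavy chain genes did not keep a fixed ratio. Per kb, Klc over Khc was 1.03 in Notch+Shal RNAi 2 and 18.0 in Notch RNAi 2, a 17.6-fold range. Klc was the higher in all 13 libraries. The control libraries spanned 2.67 to 5.74. Across the 13 libraries the Spearman correlation of Khc and Klc was 0.418 on normalised CPM and 0.527 on CPM.

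unc-104 encodes the kinesin-3 motor that carries synaptic vesicle precursors (FBgn0267002, chromosome 2R, 16751503 to 16772671, minus strand). It was the most even of the 9 genes in control, at 692, 696 and 629 CPM (coefficient of variation 5.66%). Shal RNAi libraries were at 296, 1086 and 412 CPM, Notch RNAi at 1557, 680.2, 819 and 960.2 CPM and Notch+Shal RNAi at 946, 1104 and 216 CPM. Notch RNAi 1, Notch+Shal RNAi 2 and Shal RNAi 2 were the highest in that order, and Notch+Shal RNAi 3 and Shal RNAi 1 the lowest. The Notch RNAi libraries, at 1004 ± 386 CPM (SD, n = 4), overlapped control on CPM. After TMM scaling, unc-104 lay above control in all 4, which is described under the comparison of those groups.

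Dhc64C encodes the cytoplasmic dynein heavy chain, the motor of transport back to the cell body (FBgn0261797, chromosome 3L, 4807368 to 4825687, minus strand). It stood at 46.7, 34.7 and 37.6 CPM in control and at 3.92, 58.9 and 137 CPM in Shal RNAi, so that the lowest and the highest of all 13 values were found together. Notch RNAi libraries held 30.1, 82.7, 52.1 and 59.7 CPM and Notch+Shal RNAi libraries 50.2, 71.3 and 80.3 CPM. Only 17 reads were counted in Shal RNAi 1 and 741 in Shal RNAi 3. Fitted against control, the log2 fold change was 1.46 (SE 0.83, adjusted p = 0.494) for Shal RNAi, and it became 0.08 for Dhc64C without Shal RNAi replicate 3. In Notch+Shal RNAi all 3 libraries lay above all 3 control libraries, on CPM and after scaling, with a log2 fold change of 0.84 (SE 0.81, adjusted p = 1.00). By exact permutation (2-sided) p was 0.1 for Dhc64C, the floor for groups of 3.

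The mitochondrial adaptor genes were low and scattered. milt encodes Milton, which links kinesin-1 to mitochondria (FBgn0262872, chromosome 2L, 7037823 to 7056010, plus strand). Its levels were 31.1, 42.8 and 35.5 CPM in control, 12.01, 28.4 and 32.9 CPM in Shal RNAi, 91.1, 43.7, 21.4 and 70.0 CPM in Notch RNAi and 30.3, 188 and 46.9 CPM in Notch+Shal RNAi. The control libraries were close together, Notch+Shal RNAi 2 was the highest of the 13 and Shal RNAi 1 the lowest. The log2 fold change of Notch+Shal RNAi against control was 1.27 (SE 0.79, adjusted p = 1.00) and was 0.26 for milt without Notch+Shal RNAi replicate 2.

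Miro encodes the mitochondrial GTPase that anchors Milton to the outer membrane (FBgn0039140, chromosome 3R, 24034362 to 24038847, minus strand). It was at 30.2, 47.3 and 29.7 CPM in control and at 1.39, 29.5 and 10.5 CPM in Shal RNAi, with 6 reads counted in library 1 and 57 in library 3. Notch RNAi libraries were at 50.1, 14.3, 11.6 and 36.2 CPM and Notch+Shal RNAi libraries at 28.2, 51.1 and 11.4 CPM. All 3 Shal RNAi libraries lay below control on CPM, Shal RNAi 2 by less than 1 CPM, and after TMM scaling the groups overlapped (log2 fold change -0.79, SE 0.95, adjusted p = 0.728). Miro shares 633 bases, 16.7% of its exons, with spas on the other strand. The spastin gene spas had 68 to 3651 counts, so reads of the shared stretch may belong to either gene. The RNA ratio of milt over Miro, per kb, ranged from 0.447 in Control 2 to 4.29 in Shal RNAi 1, where it rests on 6 Miro reads.

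Among the microtubule genes, futsch and stai were abundant and tau was low. futsch encodes the fly MAP1B-like protein that shapes microtubule loops at the neuromuscular synapse (FBgn0259108, chromosome X, 1409069 to 1453686, plus strand, 23308 bases of exon). It stood at 3800.2, 3488 and 2423 CPM in control and at 6073, 3322 and 6349 CPM in Shal RNAi. Notch RNAi libraries were at 2325, 3610.3, 3767 and 745 CPM and Notch+Shal RNAi libraries at 3124, 1225 and 1638 CPM. Shal RNAi 1 and 3 were the highest of all 13, while Shal RNAi 2 lay within the control range, and Notch RNAi 4 was the lowest. On CPM, which is not corrected for length, futsch was above the 98.7th percentile of all genes in every library. That rank partly reflects its 23308 bases of exon and is not a comparison of level between genes.

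stai encodes the fly stathmin, which binds tubulin dimers and is needed for stable axons and synapses (FBgn0266521, chromosome 2L, 6100377 to 6124653, plus strand). Its control levels were 2937, 3835 and 2097 CPM and its Shal RNAi levels 5081, 3589 and 4361 CPM. Notch RNAi libraries were at 1927, 2547, 2710.2 and 1181 CPM and Notch+Shal RNAi libraries at 3694, 1994 and 1487 CPM. Again Shal RNAi 1 and 3 were the highest and Notch RNAi 4 the lowest. Shal RNAi overlapped control on CPM, since Control 2 lay above Shal RNAi 2.

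tau encodes the fly Tau protein, which binds axonal microtubules (FBgn0266579, chromosome 3R, 27639886 to 27656996, minus strand, 14 annotated transcripts). It was at 57.7, 63.2 and 33.5 CPM in control and 61.2, 61.3 and 140.3 CPM in Shal RNAi. Notch RNAi libraries were at 22.4, 35.0, 30.7 and 24.9 CPM and those with both constructs at 34.1, 116 and 29.4 CPM. Shal RNAi 3 and Notch+Shal RNAi 2 were the high libraries, and the Notch RNAi libraries were the most even group, at 28.2 ± 5.67 CPM (SD, n = 4).

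The ratio of stai to futsch had a smaller range than either gene. Counts of stai over futsch ran from 0.687 in Shal RNAi 3 to 1.63 in Notch+Shal RNAi 2, a 2.37-fold range over the 13 libraries. Over the same libraries futsch ranged 8.53-fold and stai 4.30-fold on CPM. Counts of futsch over Dhc64C ran from 12.5 to 1547, but the top value rests on 17 Dhc64C reads in Shal RNAi 1, and the next highest was 100.6. Counts of futsch over tau ran from 10.5 in Notch+Shal RNAi 2, with 30.0 as the next lowest, to 122.8. Ratios within a library do not depend on the scaling factor.

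**Figure D3:**
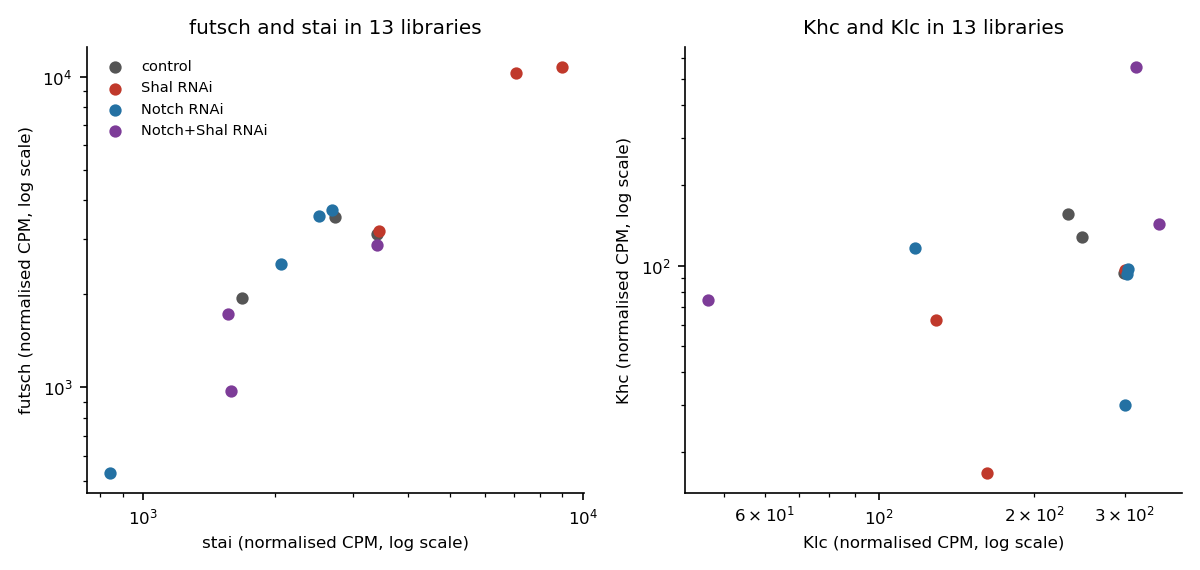
Normalised CPM (scaled by TMM factors) in the 13 libraries on log axes, 1 point per library coloured by group. On the left stai (x) and futsch (y) rise together over the libraries, with Shal RNAi 1 and 3 at the top right and Notch RNAi 4 at the bottom left; on the right Klc (x) and Khc (y) scatter, with Notch+Shal RNAi 2 the highest in Khc.

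Shal RNAi against control asks how targeting the potassium channel gene changed these transcripts. None of the 9 genes passed in edgeR's quasi-likelihood test, and none of all 8908 genes tested did (0%); DESeq2 called 309 of all genes and none of the 9. At an unadjusted p under 0.05 stood 2 of the 9, futsch and stai, beside 11.7% of all genes. The 3 microtubule genes had the largest positive values beside Dhc64C: futsch 1.49 (SE 0.66, adjusted p = 0.382), stai 1.31 (SE 0.59, adjusted p = 0.397) and tau 1.51 (SE 0.76, adjusted p = 0.436), where the median of all genes was -0.27. On plain CPM, without TMM scaling, the log2 ratio of group means was 0.70 for futsch, 0.56 for stai and 0.77 for tau. With TMMwsp factors, which moved the median of all genes to -0.02, futsch was at 1.79 and stai at 1.60.

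Normalised CPM did not overlap between Shal RNAi and control for tau and stai. These are 2 of the 9 genes, to be read against 17.9% of all genes tested. The nearest pair, Shal RNAi 2 and Control 2, stood at 3444 and 3414 for stai and at 58.8 and 56.3 for tau. On plain CPM both genes overlapped. Leaving out Shal RNAi replicates 1 and 3, an alternative chosen after seeing the data, leaves Shal RNAi 2 alone in its group. The log2 fold changes were then 0.19 for futsch, 0.43 for stai and 0.40 for tau. The summed level of 7 neuronal markers was also higher in the Shal RNAi libraries, at 4758 to 7313 CPM with all 7 detected, than in control at 2199 to 4013 CPM. Its part in the higher futsch, stai and tau levels was not tested, nor was that of the mitochondrial share.

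For Notch RNAi against control none of the 9 passed, as none of all genes did (0%), and none of the 9 had an unadjusted p under 0.05, beside 4.32% of all genes. DESeq2 called 32 of all genes and none of the 9. The lowest p belonged to unc-104, at a log2 fold change of 0.70 (SE 0.57, adjusted p = 0.999). Its normalised CPM was 644, 619.9 and 503 in control and 1669, 670.3, 812 and 684 in Notch RNAi, higher in 4 of 4 libraries (exact permutation p = 0.0571, the smallest that 4 against 3 allow). This made 1 of 9 genes without overlap, beside 3.72% of all genes, and without Notch RNAi replicate 1 the value of unc-104 was 0.29. The microtubule genes lay lower, with tau at -0.79 (SE 0.72), stai at -0.37 (SE 0.54) and futsch at -0.15 (SE 0.60), within the spread between libraries.

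With both constructs, Notch+Shal RNAi against control, again none of the 9 passed (0% of all genes) and none had an unadjusted p under 0.05, beside 4.32% of all genes; DESeq2 called 24 of all genes and none of the 9. The largest values were milt at 1.27, Khc at 1.04 and Dhc64C at 0.84 on the log2 scale. Without Notch+Shal RNAi replicate 2 the Khc value changed sign, to -0.21. Only Dhc64C had groups that did not overlap, 1 of 9 beside 5.92% of all genes. futsch stood at -0.62 (SE 0.65) and stai at -0.26 (SE 0.58). The summed level of 4 hemocyte markers, all detected, was 67.7 to 404 CPM in Notch+Shal RNAi and 16.3 to 31.1 CPM in control, and its part in the Dhc64C, milt and Khc values was not tested. The 3 comparisons against control share the control libraries.

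Notch+Shal RNAi against Shal RNAi asks what adding the Notch construct changed. It gave the lowest p-value of any pairwise comparison for these genes, that of futsch, yet none of the 9 passed in edgeR (0% of all genes). At an unadjusted p under 0.05 stood 3 of the 9, futsch, stai and Khc, beside 12.3% of all genes. futsch had a log2 fold change of -2.12 (SE 0.67, adjusted p = 0.246), where the median of all genes was 0.38. The 3 Notch+Shal RNAi libraries lay below all 3 Shal RNAi libraries on CPM and after scaling (exact permutation p = 0.1, the floor for groups of 3). The nearest pair, Notch+Shal RNAi 1 and Shal RNAi 2, stood at 3124 and 3322 CPM of futsch. DESeq2 called futsch at -2.19 (adjusted p = 0.0475) among 308 genes; over the alternatives the adjusted p of futsch ran from 0.0475 to 1.00. Without Shal RNAi replicates 1 and 3, which leaves Shal RNAi 2 alone in its group, the futsch value was -0.83.

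In the same comparison stai was at -1.57 (SE 0.59, adjusted p = 0.324) and tau at -1.30 (SE 0.75, adjusted p = 0.463). Khc went the other way, at 2.07 (SE 0.79, adjusted p = 0.326), and without Notch+Shal RNAi replicate 2 Khc was at 0.82. futsch and stai, 2 of 9 genes, did not overlap after scaling, beside 11.7% of all genes. The neuronal marker sum was 1964, 3825 and 7735 CPM in Notch+Shal RNAi from lowest to highest, against 4758 to 7313 CPM in Shal RNAi.

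Notch+Shal RNAi against Notch RNAi, which asks what adding the Shal construct changed, gave none of 9 (0% of all genes), with 1 of 9 at an unadjusted p under 0.05 beside 4.87% of all genes. That gene was Khc, at 1.63 (SE 0.70, adjusted p = 0.998), with overlapping libraries. Without Notch+Shal RNAi replicate 2 it was at 0.38. No gene of the 9 had groups without overlap, beside 1.9% of all genes. DESeq2 called 33 of all genes and none of the 9.

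The interaction gave none of 9 in edgeR (0% of all genes) and none in DESeq2, which called 118 of all genes. Khc and futsch had an unadjusted p under 0.05, 2 of 9 beside 9.16% of all genes. futsch was at -1.97 (SE 0.90, adjusted p = 0.529) and stai at -1.20 (SE 0.80), where the median of all genes was 0.40. The 3-degree test for any difference among the 4 groups called 66 of 8908 genes (0.741%) and none of the 9; DESeq2 called 186 and none of the 9. At an unadjusted p under 0.05 stood 4 of 9, futsch (adjusted p = 0.238), stai (0.277), tau (0.354) and Khc (0.421), beside 11.4% of all genes. These comparisons share libraries, so their values are not independent of each other.

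**Figure D4:**
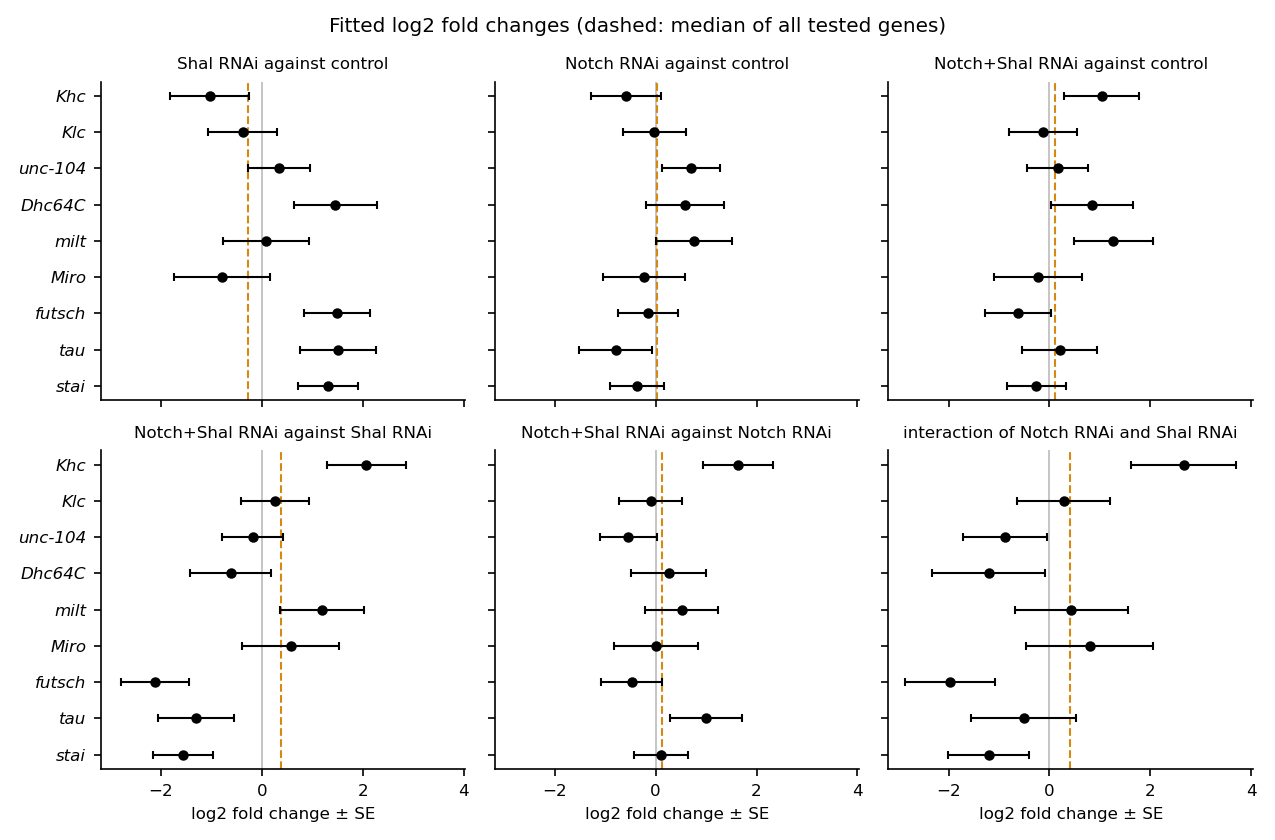
Fitted log2 fold change of the 9 genes in each of 6 comparisons, with bars of 1 standard error, a grey line at 0 and a dashed line at the median of all tested genes. futsch, tau and stai lie right of the median for Shal RNAi against control and left of it for Notch+Shal RNAi against Shal RNAi; none of the values passed the adjusted threshold.

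What the data can show is set by the spread between libraries. The biological coefficient of variation estimated by the fit was 0.564 for stai, 0.581 for unc-104, 0.618 for futsch and 0.979 for Miro, the highest of the 9, where the median tested gene had 1.17. Of all tested genes, 1.46% were less variable than stai and 39.2% less than Miro. Much of this goes with level: among the 46 genes of about the same level as stai, 23.9% were less variable, and among the 32 like futsch, 75.0%.

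Single libraries held most of the extreme values. On CPM, Shal RNAi 1 was the lowest library for 4 of the 9 genes, Khc, Dhc64C, milt and Miro, and the highest for stai. Notch+Shal RNAi 2 was the highest for 4, Khc, Klc, milt and Miro. Shal RNAi 3 was the highest for 3, Dhc64C, futsch and tau. Notch RNAi 4 and Notch+Shal RNAi 3 were each the lowest for 2 genes, futsch and stai in the former, Klc and unc-104 in the latter. No control library was the lowest or the highest for any of the 9.

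**Figure D5:**
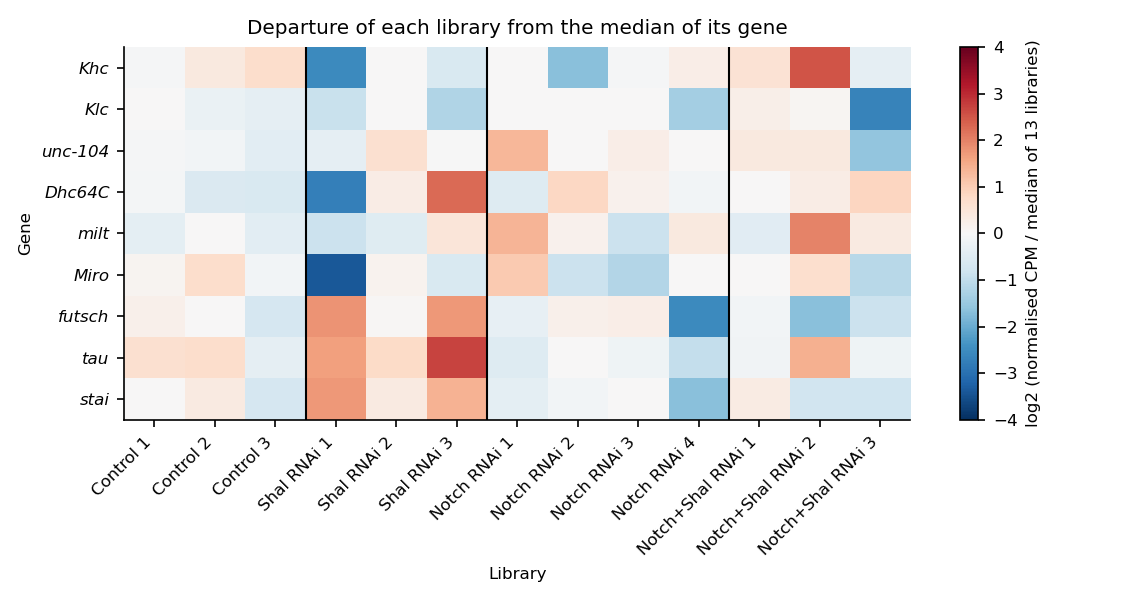
Log2 of each library's normalised CPM over the gene's median across the 13 libraries, for the 9 genes (rows) and libraries in group order (columns, groups divided by lines), red above and blue below the median. Shal RNAi 1 is red for futsch, tau and stai and blue for Khc, Dhc64C and Miro; Notch+Shal RNAi 2 is red for Khc, milt and tau and blue for futsch.

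Across the 13 libraries, on normalised CPM, the highest correlations among the 9 genes were mostly between genes of 1 role. Spearman's correlation of normalised CPM was 0.830 for futsch and stai, 0.709 for tau and stai, 0.758 for Klc and unc-104 and, across roles, 0.676 for Khc and Miro. The heavy and light chains of kinesin-1, Khc and Klc, were at 0.418, and the adaptors milt and Miro at 0.445. The most negative value was -0.725 for Khc and futsch, and milt and stai were at -0.527. On plain CPM the futsch and stai value was 0.824, the Klc and unc-104 value 0.599, the milt and Miro value 0.637 and the milt and stai value -0.742. The next highest after futsch and stai on that scale were across roles, unc-104 and Miro at 0.753 and Khc and Miro at 0.720. Both lay above tau and stai at 0.687, so the lean towards pairs of 1 role depended on the scaling. These are descriptions over 13 libraries, which share depth and scaling, and no p-value is attached.

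Among all 8908 tested genes, those whose pattern over the 13 libraries was most like futsch were CG30172 (Spearman 0.967), l(2)41Ab and CG7772. For stai they were Ank2, an ankyrin of axons (0.934), MtnF and bol, and for tau beat-IIa (0.918), Syt1, the calcium sensor of synaptic vesicles and 1 of the 7 neuronal markers (0.890), and alpha-Spec, a spectrin of the membrane skeleton (0.885). Khc was most like abs (0.941), Xpac and Golgin104, and Klc most like ric8a (0.896), Npc1a and CG13384. Npc1a also led for unc-104 (0.868), followed by CG30015 and hoe1. For milt the closest were CG1486 (0.945), CG16721 and TBC1D23, for Miro Cog2 (0.906), PPP1R15 and Pc, and for Dhc64C C1GalTA (0.835), CG32302 and CG4404, the last 2 with a median of 0 and 0.369 CPM. None of these closest genes was another of the 9.

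Other genes of the same machinery were listed by role, 62 in all; 61 had a row in the table and 59 were tested. These were 8 other kinesins, 9 dynein subunits and regulators, 7 dynactin subunits, 11 cargo adaptors and regulators, 8 tubulins and 16 microtubule-associated or severing proteins. None passed in edgeR in any of the 6 comparisons or in the test over the 4 groups, and DESeq2 called none in the 6 comparisons. At an unadjusted p under 0.05 stood 6 of 59 for Shal RNAi against control (11.7% of all genes), 1 for Notch RNAi (4.32%) and 4 for both constructs together (4.32%). There were 7 between Notch+Shal RNAi and Shal RNAi (12.3% of all genes), 2 between Notch+Shal RNAi and Notch RNAi (4.87%) and 3 for the interaction (9.16%). The highest levels per kb in each role belonged to alphaTub84B, the main alpha-tubulin gene, at a median of 2949 CPM per kb, robl, a dynein light chain (1002), Rab7 (318), Jupiter (295), Arp1 of dynactin (147) and Klp64D, a kinesin-2 motor (86.6). Against these, the dynein heavy chain gene Dhc64C, with 14597 bases of exon, was in its middle library at 3.57 CPM per kb. How evenly reads of the amplified polyA RNA covered long and short transcripts was not tested, so the gap is not a measured difference in transcript number. Reads of alphaTub84B may be split with its near-identical copy alphaTub84D.

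The roles leaned in different directions without passing. Among the 16 microtubule-associated and severing genes, 13 had values above 0 in Shal RNAi against control (median 0.90, all genes -0.27), 15 in Notch RNAi (median 0.78, all genes 0.03) and 16 in Notch+Shal RNAi (median 0.74, all genes 0.11), 3 comparisons that share the control libraries. The 8 tubulin genes tested lay the other way in Shal RNAi, 7 below control with a median of -0.57. Some were low or near the floor, with medians of 0.529 CPM for betaTub97EF, 0.642 for alphaTub85E, 0.923 for betaTub85D and 3.22 for alphaTub67C. Of all genes tested, 42.8% had values above 0 in Shal RNAi against control, so most did not lie above control there. That share was 51.3% for the Notch construct alone and 55.7% for both constructs. The 16 genes leave out futsch, tau and stai, which are among the 9 and lay above 0 in Shal RNAi. In Notch RNAi these 3 were at -0.15, -0.79 and -0.37, and in Notch+Shal RNAi at -0.62, 0.21 and -0.26. The role lists were chosen with earlier results of these data known. With TMMwsp factors, 15 microtubule-associated and severing genes lay above control in Shal RNAi and 7 tubulin genes below, with medians of 1.17 and -0.32. Without Shal RNAi replicates 1 and 3 these numbers were 11 and 6, with medians of 0.37 and -0.10. alphaTub84B was at 3850.5, 9326 and 6186 CPM in control and at 1246, 5861 and 1479 CPM in Shal RNAi, so the libraries with the most futsch had the least alphaTub84B.

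In Shal RNAi against control the lowest p-values of these genes belonged to robl at 2.17 (SE 0.72, adjusted p = 0.236) and CLIP-190, a microtubule plus-end protein, at 2.00 (SE 0.73, adjusted p = 0.285). robl was at 609.6, 344 and 514 CPM in control and 1621, 528 and 1508 CPM in Shal RNAi, with library 2 at control level as for futsch. For Notch+Shal RNAi against control they were Tao, a kinase that acts on microtubules, and Patronin, a minus-end protein. Tao was at 3.01 (SE 1.02) and Patronin at 2.45 (SE 0.84), and neither passed, as none of all genes tested did. Tao stood at 5.50, 8.26 and 18.4 CPM in control and 14.8, 223 and 23.0 CPM in Notch+Shal RNAi, a mean set by library 2, which was also the highest for Khc and milt. Between Notch+Shal RNAi and Shal RNAi, robl was at -2.13 (SE 0.72, adjusted p = 0.278) and Dlic, a dynein light intermediate chain, at 2.26 (SE 0.88, adjusted p = 0.333).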

How the data were processed

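The deposited table holds raw counts of reads per gene, which the authors made from 100-base paired-end reads of amplified polyA RNA, per the labels' protocols; no molecular identifiers are described. The submitters' processing notes name build BDGP6, STAR 2.7.0e, edgeR 3.26.7, limma 3.40.6 and R 3.6.1. Neither the counting tool nor its strand setting is given in the sources used here. Of 17753 gene IDs, 17626 were found in the BDGP6.54 annotation, which supplied symbols, positions and exon lengths.

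CPM was computed here from the counts and each library's total, and normalised CPM from the TMM-scaled size of the library over the tested genes. Per-kb levels divide by the length of all exons joined. edgeR 4.0.16 in R 4.3.3 fitted all 13 libraries together with 1 coefficient per group (robust quasi-likelihood test) on the 8908 genes that passed its filter on low counts (minimum count 10, minimum total 15), which all 9 genes passed. P-values were adjusted by Benjamini-Hochberg over those genes, with a threshold of 0.05. Exact permutation tests were 2-sided, on log2(normalised CPM + 1). The scripts were tested on simulated counts. Alternatives were other scaling factors, mitochondrial genes left out, other filters, DESeq2 1.42.0, limma 3.58.1 (voom), only the groups compared, the replicate number as a block and leaving out each library. Leaving out Shal RNAi 1 and 3 together and the older edgeR method were added after seeing the data.

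All 9 genes are described; the genes most alike are the 3 with the highest Spearman correlation per gene, and the others named are from role lists, at most the 2 of lowest p in each direction or the highest per-kb level in a role. The members and lists were chosen with earlier results of these data known. Replicate libraries differed by far more than counting noise (chi-square per gene 125 to 612 over 15 pairs).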

Additional observations from a re-analysis of the deposited data

Results flagged for a closer look

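The Notch RNAi group, with 4 libraries, was tested for a single library that stands apart, for 9 genes on each of 2 scales. In Klc, the kinesin light chain gene, Notch RNAi 4 was at 165 CPM and at 117 normalised CPM, with the gap to the next library covering 0.850 and 0.975 of the range of the group. In unc-104, the kinesin-3 gene, Notch RNAi 1 stood at 1669 normalised CPM, with a gap of 0.858 of the range. Dixon's test marks about 1 in 20 groups by chance, and the 2 scales share the same counts.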

How the results depend on the processing

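None of the 9 genes passed with RLE or TMMwsp factors, mitochondrial genes left out or either other filter (7 comparisons each). The same held for limma and the older edgeR method (7 comparisons each) and with only the groups compared (the 5 between pairs of groups). With single libraries left out the number stayed between 0 and 0. DESeq2 called 1 of them, futsch between Notch+Shal RNAi and Shal RNAi (-2.19 on the log2 scale, adjusted p = 0.0475); the cause was not tested. Of the 54 fitted fold changes of the 9 genes, 31 kept their sign under every alternative run and 23 did not, 21 of these on leaving out a library. With the replicate number as a replicate block, 0 of the 9 passed, and 25 of all genes differed among the 4 groups. Correlations of departures from group means ran from -0.199 to 0.247 in same-numbered libraries (median 0.086), over 0.1 in 5 of 18 pairs. In differently numbered libraries they ran from -0.311 to 0.358 (median 0.003), over 0.1 in 7 of 45 pairs. The main fit did not pair libraries by number, and these values do not settle whether same-numbered libraries shared a batch.

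The number of all genes that differed among the 4 groups, 66, was 161 with no filter, 122 with TMMwsp factors, 186 with DESeq2, 28 with limma and 1 with the older edgeR method. It was 6 without Shal RNAi replicate 1, 183 without replicate 2 and 5 without replicate 3. The lowest counts of the 9 genes were 6 for Miro and 17 for Dhc64C, both in Shal RNAi 1, where counting error is widest.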
